A study of Mus musculus with 16 samples.

Results

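Drop-seq libraries of 8 *Esr1*cKO mice were compared, 4 from mice given tamoxifen and 4 from mice given oil, out of 16 libraries in the whole series. The members were taken by label: every library whose strain is Esr1cKO entered, in the injection group its label gives. In these mice the *Esr1* floxed allele, which encodes estrogen receptor alpha (ERα), is recombined by an *Nkx2-1*-Cre transgene, so the receptor is lost in the *Nkx2-1* lineage of the medial basal hypothalamus and preoptic area and kept in other cells of the brain and body. All mice were females on a mixed CD-1;129P2 background, 8 to 10 weeks old when the injections began, and each library came from 1 mouse. Tamoxifen was given subcutaneously at 0.1 mg/kg, or the corn oil vehicle with ethanol alone, in 28 daily injections, and the tissue was taken 2 hr after the last one. The wild-type mice of the series (3 on oil and 5 on tamoxifen) were littermates without Cre. They enter here through the clustering of cells, the filter on low counts, the normalization, the shared estimate of spread and the comparisons between the genotypes.

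ERα is a nuclear receptor that binds estrogens and regulates transcription at estrogen-responsive genes. Tamoxifen binds the same receptor and acts as an antagonist in some tissues and as a partial agonist in others, and it also has targets that do not depend on ERα. The receptor is known in this brain region, the hypothalamus-POA, mainly for its place in reproductive, thermoregulatory and energy-balance neurons. A comparison of tamoxifen with oil in mice that lack ERα in this lineage asks which transcripts differ with the drug when that receptor is missing there.

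In Drop-seq a transcript is tagged on capture with the barcode of its cell and with a random molecular tag, the unique molecular identifier (UMI), so UMIs count molecules rather than PCR copies. A cell was kept if it had over 200 and below 4000 genes, with mitochondrial transcripts at less than 15% of its UMIs, which left 25868 cells of 55675 in the series, 13262 from oil and 12606 from tamoxifen mice. A library held 1888 to 4209 of these cells and 1773412 to 5444331 UMIs, with a median of 590 to 819 UMIs per cell. UMIs were summed per library, and a gene's level is given as CPM, its UMIs per 1000000 UMIs of the library. Counting error alone limits what a library can show: 3 UMIs correspond to 0.551 CPM in the deepest library and 1.69 CPM in the shallowest. Tamoxifen replicate 3 stood apart. Only 10.6% of its UMIs lay on genes whose introns sum to over 100000 bp, against 16.4% to 19.3% in the other 7 libraries, so every comparison was also made without it. Of the wild-type libraries oil replicate 3 had a like share, 10.2%, and these 2 libraries were also the ones whose deposited barcodes held at least 100 genes, where those of the other libraries went down to 20, so the comparison between the genotypes was made without both as well. Oil replicate 4 and tamoxifen replicate 4 shared 303 cell barcodes with each other, and each shared between 309 and 352 with 2 wild-type libraries of adjacent library numbers. The profiles under a shared barcode correlated at a median r of 0.527 between these 2 libraries, against 0.12 for other pairs of cells. The barcodes found in 2 or more libraries were 11.2% of the cells of oil replicate 4 and 8.50% of tamoxifen replicate 4, and 0.228% to 0.760% in the other 6 libraries. Without them the median log2 fold change of each gene list below moved by at most 0.0387.

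The deletion itself could not be checked in these data, because Drop-seq counts transcript 3′ ends and the floxed exon is internal. The study checked it by staining for the ERα protein. It reported loss of the protein in the medial preoptic area, the ventrolateral ventromedial nucleus and the arcuate nucleus of *Esr1*cKO mice. Its own single-cell data likewise showed no significant decrease of *Esr1* transcripts. *Esr1* stood at 33.2, 38.1, 36.2 and 34.8 CPM in the oil libraries and at 44.1, 60.3, 10.1 and 54.3 CPM in the tamoxifen libraries. The low value is tamoxifen replicate 3, and the other 3 tamoxifen libraries lay above all oil libraries. *Esr1* carries 380361 bp of introns, so it belongs to the class with the low share of UMIs in that library. The log2 fold change of tamoxifen against oil was 0.18 ± 0.43 (SE, n = 4 against 4), and 0.52 without tamoxifen replicate 3. Across all 16 libraries the *Esr1*cKO groups differed from the wild-type groups by -0.34 ± 0.31 on the log2 scale (SE; edgeR unadjusted p = 0.286).

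No gene passed the test. Of 16626 genes in the edgeR quasi-likelihood fit of the 4 groups, 0 had a Benjamini-Hochberg adjusted p under 0.05 for tamoxifen against oil in *Esr1*cKO mice, which is 0% called, and DESeq2 also called 0. Unadjusted, 540 genes had a p under 0.05, 3.25% of those tested, 260 higher (1.56%) and 280 lower (1.68%) with tamoxifen. In 346 genes (2.08%) the 4 tamoxifen and the 4 oil libraries did not overlap, 172 of them higher (1.03%) and 174 lower (1.05%). The values below therefore describe these 8 libraries, and none of the differences is a call. The mice are separate animals, so the p-values measure the spread between mice within a group, with processing day included. Oil replicate 4 and tamoxifen replicate 4 shared cell barcodes with correlated profiles (above), and whether these libraries were partly mixed was not tested.

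The 12 genes with the smallest p among those that were higher with tamoxifen and did not overlap had their UMIs in several cell types. *Snn*, which encodes the small membrane protein stannin (chromosome 16, 11060945 to 11074985, + strand, GRCm38), stood at 19.9, 21.9, 19.6 and 20.5 CPM in the oil libraries and at 33.6, 34.4, 27.7 and 26.6 CPM in the tamoxifen libraries. Its 4 oil libraries lay within a narrow band below every tamoxifen library, and the log2 fold change was 0.55 ± 0.12 (SE; edgeR unadjusted p = 0.000361). *Aurkaip1*, whose product is a protein of the mitochondrial ribosome, stood at 54.7, 40.1, 56.6 and 41.0 CPM with oil and 66.9, 69.9, 63.9 and 72.6 CPM with tamoxifen, a log2 fold change of 0.49 ± 0.13. The tamoxifen libraries were the tighter group here, and the highest oil library stayed below the lowest of them. Neurons held the largest share of the UMIs of both genes, 42.4% for *Snn* and 37.1% for *Aurkaip1*. Of all genes together neurons also held the most UMIs of any cell type in every library. They held 421210 of 1773412 UMIs in tamoxifen replicate 2 and 1271994 of 2765111 in tamoxifen replicate 1. A largest share in neurons, here and in the genes below, therefore does not by itself mark a gene as neuronal.

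*Cd52*, a surface glycoprotein of leukocytes, had 19.2, 16.96, 11.1 and 12.97 CPM with oil and 24.9, 65.4, 21.1 and 30.9 CPM with tamoxifen, a log2 fold change of 1.18 ± 0.32. Tamoxifen replicate 2 was by far the highest, and 92.4% of the UMIs lay in the microglia-like cluster. *Susd3*, which encodes a sushi domain membrane protein and had 86.6% of its UMIs in the same cluster, had 4.97, 7.83, 6.98 and 6.49 CPM with oil and 11.9, 11.3, 8.63 and 12.5 CPM with tamoxifen. *Ifitm6*, of the interferon-induced transmembrane family, was at 0, 0.652, 0.582 and 0.778 CPM with oil and 3.98, 9.02, 4.96 and 1.06 CPM with tamoxifen, so the oil libraries held 8 UMIs of it in all and the tamoxifen libraries 58. Among the tamoxifen libraries replicate 2 was its highest and replicate 4 its lowest, as for the neutrophil genes described further down. *Gm24497*, annotated as a small nuclear RNA gene, was the other low-count member, with 26 UMIs over the oil and 54 over the tamoxifen libraries.

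Neurons held the largest share of UMIs in 4 of the other 6 genes, *Atg2a*, *Gemin7*, *Bop1* and *Tmem209*. *Atg2a*, which encodes a lipid transfer protein of autophagosome formation, had 8.95, 10.8, 11.6 and 8.56 CPM with oil and 19.5, 16.9, 13.2 and 17.6 CPM with tamoxifen, a log2 fold change of 0.72 ± 0.18. *Bop1*, needed for assembly of the large ribosomal subunit, and *Gemin7*, a subunit of the SMN complex that builds spliceosomal particles, had log2 fold changes of 0.68 ± 0.19 and 0.53 ± 0.15. *Tnfaip1*, *Plxnb2*, a receptor for semaphorins, and *Tmem209* had log2 fold changes of 0.54 ± 0.16, 0.61 ± 0.19 and 0.43 ± 0.13. Without tamoxifen replicate 3 the 11 of the 12 genes that were still tested had log2 fold changes between 0.46 and 1.36, and *Ifitm6* no longer passed the filter on low counts.

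Neurons held the largest share of UMIs in 6 of the 12 genes that were lower with tamoxifen, among them the 3 with the largest folds. *Crhbp* encodes the binding protein of corticotropin-releasing hormone, which keeps the hormone from its receptors. It had 13.6, 6.52, 10.5 and 6.23 CPM with oil and 4.34, 1.69, 2.20 and 5.05 CPM with tamoxifen, and every tamoxifen library lay below every oil library. The log2 fold change was -1.46 ± 0.38 (SE; edgeR unadjusted p = 0.00139), and 88.7% of its UMIs lay in neurons. *Nsun7*, of the NSUN family of RNA methyltransferases, had 27.5, 18.6, 27.9 and 21.0 CPM with oil and 15.6, 11.3, 8.27 and 13.8 CPM with tamoxifen, a log2 fold change of -0.99 ± 0.23 that was -0.84 without tamoxifen replicate 3. *Uprt*, a homologue of uracil phosphoribosyltransferase, was low in all libraries, at 2.52 to 3.26 CPM with oil and 0.362 to 1.69 CPM with tamoxifen. *Cdk7*, the kinase of the CDK-activating complex and of TFIIH, and *Ankrd42* had log2 fold changes of -0.48 ± 0.14 and -0.56 ± 0.17. The uncharacterized gene *9330159F19Rik* had 147, 153, 111 and 119 CPM with oil and 91.1, 81.2, 84.3 and 102 CPM with tamoxifen, a log2 fold change of -0.58 ± 0.17.

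Oligodendrocytes held the largest share of UMIs in 6 of the 12 lower genes. *Nfasc*, which encodes neurofascin, an adhesion molecule of the node of Ranvier and its flanks, had 188, 188, 189 and 281 CPM with oil and 170, 147, 141 and 147 CPM with tamoxifen. Oil replicate 4 was far above the other oil libraries, and the other 3 oil libraries were still above all tamoxifen libraries. *Slc44a1*, which encodes a choline transporter, had 184, 176, 134 and 165 CPM with oil and 112, 126, 99.0 and 124 CPM with tamoxifen, a log2 fold change of -0.55 ± 0.15. *Zdhhc14*, which encodes a palmitoyltransferase, had 55.7, 74.7, 62.2 and 77.1 CPM with oil and 48.5, 46.2, 27.0 and 46.8 CPM with tamoxifen, and tamoxifen replicate 3 was the lowest of the 8. The log2 fold changes of *Kndc1*, *Clasp2*, a microtubule plus-end protein, and *Abhd17b*, a depalmitoylase, were -0.49 ± 0.14, -0.45 ± 0.13 and -0.44 ± 0.13. The share of cells that were oligodendrocytes was lower in the tamoxifen libraries as well (below), and its part in these values was not tested. In summed libraries, fewer cells of a type and less RNA per cell cannot be told apart.

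**Figure D1:**
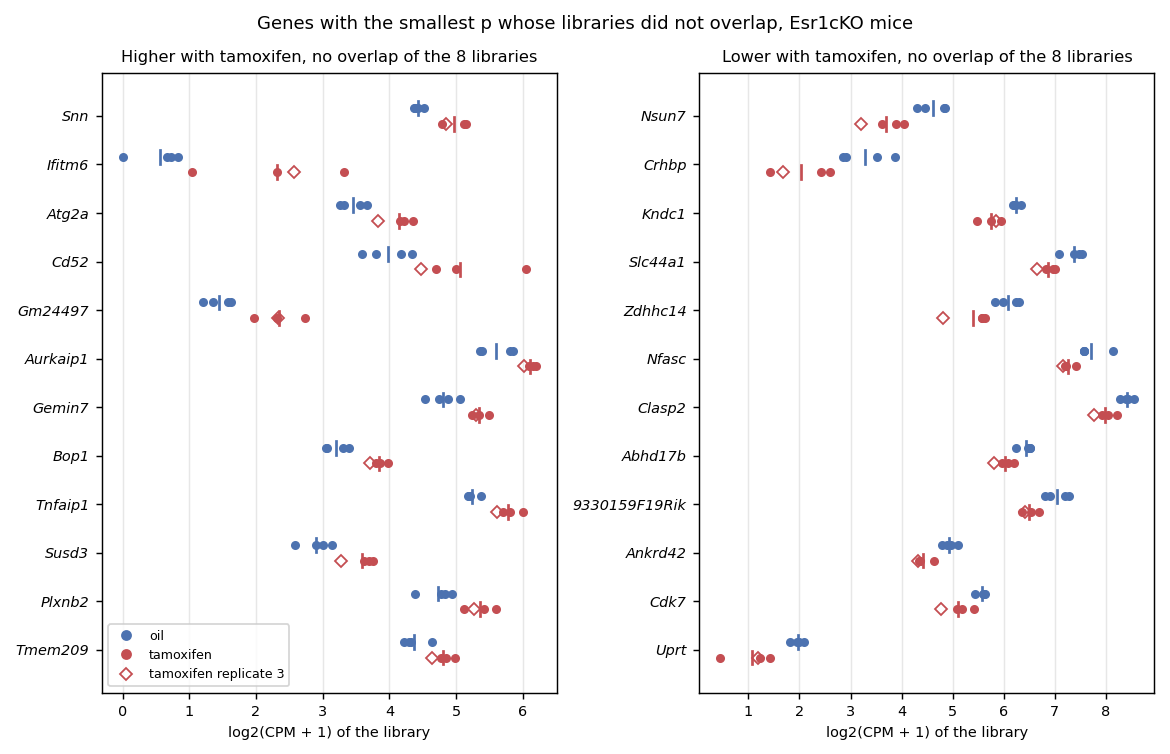
Levels of the 12 genes higher (left) and the 12 genes lower (right) with tamoxifen whose libraries did not overlap, ordered by unadjusted p from the smallest at the top. Each point is 1 library on a log2(CPM + 1) axis, oil in blue above and tamoxifen in red below each gene, with the mean of the 4 libraries as a bar and tamoxifen replicate 3 as an open diamond. None of the 24 genes passed an adjusted p of 0.05, and the open diamond was the lowest tamoxifen library in 8 of the 12 genes on the right.

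Genes of 16 pathways were then followed as lists, each described by its counts and its median beside all genes tested, of which 48.8% had a log2 fold change above 0 (50.9% without tamoxifen replicate 3) and the median was -0.01. The interferon response and MHC class I list stood highest. Interferons induce these genes through STAT and IRF factors, and the class I molecules among them present peptides to T cells. Of its 37 members, all tested, 35 were higher and 2 lower, with a median log2 fold change of 0.38, or 0.36 without tamoxifen replicate 3. At an unadjusted p under 0.05 there were 4 higher members, *Bst2*, *Ifitm2*, *Ifitm3* and *H2-D1*, and the libraries did not overlap in 3, *H2-D1*, *Psmb8* and *Psmb9*. Of all genes tested 1.56% were higher at that p and 1.03% were higher without overlap.

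*H2-D1*, a classical class I heavy chain, had 344, 505, 500 and 534 CPM with oil and 611, 1034, 603 and 655 CPM with tamoxifen, a log2 fold change of 0.60 ± 0.28. Tamoxifen replicate 2 was the highest by a wide margin and oil replicate 1 the lowest. *Ifitm3*, which restricts viral entry at endosomes, had 86.9, 168, 192 and 166 CPM with oil and 191, 332, 285 and 245 CPM with tamoxifen, a log2 fold change of 0.77 ± 0.30, and its groups overlapped by 1 library each. *Psmb9*, a catalytic subunit of the immunoproteasome, had 10.3, 16.3, 15.1 and 17.1 CPM with oil and 20.6, 25.9, 19.8 and 23.4 CPM with tamoxifen. Oil replicate 1 was the lowest library of all 3 genes. Over the list, the median of the members' levels relative to the oil mean was -0.43, 0.16, 0.14 and 0.18 in the oil libraries and 0.19, 0.54, 0.28 and 0.47 in the tamoxifen libraries, on a log2(CPM + 1) scale, so 3 of the oil libraries lay close below the lowest tamoxifen library. Oil replicate 1 lay well below those 3, so part of the difference between the groups in this list rests on that library.

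*Bst2* (tetherin, which holds budding virions at the cell surface) had 4.97, 7.83, 10.9 and 6.23 CPM with oil and 9.04, 17.5, 11.4 and 14.6 CPM with tamoxifen, a log2 fold change of 0.77 ± 0.27. *Ifitm2* had 28.2, 47.3, 62.0 and 40.0 CPM with oil and 72.7, 109, 51.6 and 63.9 CPM with tamoxifen, a log2 fold change of 0.71 ± 0.25. Both groups overlapped, through oil replicate 3 in each gene. Their promoters are shown because these genes were the 2 interferon genes with the smallest p. The sequences are the 250 bases before each annotated start, from RefSeq on GRCm38.p6, written 5′ to 3′ on the gene's own strand. Capitals mark matches to 2 copies of GAAA with any 2 bases between them, the core of an interferon-stimulated response element.
*Bst2*, chr8:71537473-71537722, - strand: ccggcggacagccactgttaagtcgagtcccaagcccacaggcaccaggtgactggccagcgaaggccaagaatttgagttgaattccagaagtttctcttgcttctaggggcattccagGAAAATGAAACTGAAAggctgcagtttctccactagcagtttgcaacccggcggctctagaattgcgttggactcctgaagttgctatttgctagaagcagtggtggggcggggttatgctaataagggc
*Ifitm2*, chr7:140955962-140956211, - strand: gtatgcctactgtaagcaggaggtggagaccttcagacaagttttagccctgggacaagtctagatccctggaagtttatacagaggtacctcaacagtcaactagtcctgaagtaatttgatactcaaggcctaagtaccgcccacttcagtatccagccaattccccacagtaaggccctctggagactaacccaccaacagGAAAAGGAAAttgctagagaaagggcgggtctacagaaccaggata
In *Bst2* there were 2 overlapping matches, and in *Ifitm2* 1. Searched on both strands in windows of 300 bases (these 250 bases and the 50 after the start), these letters were found in 14 of the 30 list genes that have an entry (46.7%) and in 943 of 27025 promoters of all genes (3.49%). The list was chosen as interferon genes, and its share of matches does not depend on the values of these libraries. A match of letters is a description and not a measured binding site.

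Endothelial cells and microglia are known to express many of these genes. The mean share of endothelial cells was higher in the tamoxifen libraries, with overlapping ranges (below), and its part in the values of the list was not tested. Within the endothelial cells alone, 32 of the 37 members were higher and 5 lower, where 46.9% of all endothelial genes were higher, with a median of 0.17, against 0.38 in the whole libraries, and 4 members had an unadjusted p under 0.05 against 1.54% of all endothelial genes in that direction. *H2-D1* had 1351, 2132, 2107 and 2154 CPM in the endothelial cells of the oil mice and 2593, 3637, 2267 and 2572 CPM in those of the tamoxifen mice, a log2 fold change of 0.52 ± 0.24. The groups stayed apart, with tamoxifen replicate 3 just above the highest oil library. *Ifitm3* in endothelial cells had 713, 875, 1088 and 742 CPM with oil and 1093, 1342, 1259 and 1074 CPM with tamoxifen, a log2 fold change of 0.48 ± 0.16, and 1 oil library lay above 1 tamoxifen library. In microglia-like cells 14 of 18 members tested were higher, against 47.1% of all genes there, and the median was 0.22, or 0.09 without tamoxifen replicate 3. In the other 7 cell types the median lay between 0.03 in ependymal cells and 0.36 in fibroblast-like cells.

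The corticosteroid response list stood lowest together with the myelin list. Its genes are induced by the glucocorticoid receptor, among them *Fkbp5*, a co-chaperone that feeds back on that receptor. Of 20 members 18 were lower and 2 higher, with a median log2 fold change of -0.38, or -0.37 without tamoxifen replicate 3. Lower at an unadjusted p under 0.05 were 6 (*Arl4d*, *Fkbp5*, *Plin4*, *Zbtb16*, *Errfi1* and *Ddit4*), against 1.68% of all genes in that direction. *Arl4d*, a small GTPase, had 16.6, 18.3, 16.9 and 16.1 CPM with oil and 10.5, 10.2, 13.8 and 12.8 CPM with tamoxifen, a log2 fold change of -0.51 ± 0.17. Its groups did not overlap, and neither did those of *Pdk4*, which encodes a kinase that inhibits pyruvate dehydrogenase, at 3.91 to 4.93 CPM with oil and 2.17 to 3.38 CPM with tamoxifen. *Fkbp5* had 48.7, 47.0, 41.9 and 24.1 CPM with oil and 23.5, 32.1, 14.5 and 29.3 CPM with tamoxifen, a log2 fold change of -0.75 ± 0.30 that was -0.56 without tamoxifen replicate 3. Oil replicate 4 was the exception in this gene, below 2 of the tamoxifen libraries.

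Oil replicate 4 was low in the same way over the whole list. The median of the members' levels relative to the oil mean was 0.00, 0.13, 0.24 and -0.43 in the oil libraries and -0.43, -0.10, -0.30 and -0.10 in the tamoxifen libraries, so that library was level with the lowest tamoxifen library. It also had the most mitochondrial transcripts of the 8, 9.21% of UMIs against 4.32% to 5.52% in the other oil libraries and 4.35% to 8.54% with tamoxifen, and the fewest of its deposited UMIs were kept, 48.9% against 63.2% to 71.2% in the other oil libraries. Without it 19 of the 20 members were lower, 9 of them at an unadjusted p under 0.05, with a median of -0.47, and without oil replicate 1 there was 1 such member and the median was -0.33. The share of all genes lower at that p in these fits is not given here. These counts therefore cannot be compared with the count from all libraries. *Plin4*, which coats lipid droplets, had 17.9, 14.02, 13.4 and 3.37 CPM with oil and 5.43, 3.38, 3.12 and 7.98 CPM with tamoxifen. *Zbtb16*, a zinc finger transcription factor, had 84.6, 64.6, 59.7 and 35.0 CPM with oil and 19.5, 59.8, 22.4 and 43.9 CPM with tamoxifen. In both genes the other 3 oil libraries were above or level with every tamoxifen library. *Per1* and *Mt1* were the 2 members above 0, with log2 fold changes of 0.20 ± 0.16 and 0.01 ± 0.21.

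Within cell types the list was lower in most members in several types, and less so in others. In oligodendrocytes, where 46.4% of all genes were higher, 15 of 16 members tested were lower and the median was -0.43, and 5 members had an unadjusted p under 0.05 against 2.05% of all oligodendrocyte genes in that direction. In endothelial cells all 16 members tested were lower with a median of -0.32, and in microglia-like cells 11 of 12 with a median of -0.30. In astrocytes 13 of 16 members tested were lower, where 48.1% of all genes were higher, with a median of -0.23 that was -0.38 without tamoxifen replicate 3. In neurons the median was -0.08, with 9 of 14 lower where 46.4% of all genes were higher. *Plin4* in oligodendrocytes had 80.5, 57.7, 75.9 and 10.4 CPM with oil and 19.7, 7.80, 6.52 and 32.4 CPM with tamoxifen, so oil replicate 4 was again level with the tamoxifen libraries. *Fkbp5* in fibroblast-like cells had 406, 372, 164 and 212 CPM with oil and 100, 147, 122 and 160 CPM with tamoxifen, and there the groups did not overlap (log2 fold change -1.09 ± 0.39). It was the lowest of the 10 members tested in those cells, of which 7 were lower and 3 higher, with a median of -0.13. Without tamoxifen replicate 3 that median was 0.0021, with 5 higher and 4 lower.

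All 20 myelin genes were lower in the tamoxifen libraries, with a median of -0.38, or -0.48 without tamoxifen replicate 3. At an unadjusted p under 0.05 there were 8, and in 5 (*Mog*, *Apod*, *Mobp*, *Cldn11* and *Mbp*) the libraries did not overlap. Of all genes tested 1.68% were lower at that p and 1.05% were lower without overlap. *Mog*, a glycoprotein of the outer myelin surface, had 371, 372, 301 and 292 CPM with oil and 196, 234, 247 and 234 CPM with tamoxifen, a log2 fold change of -0.57 ± 0.19. *Mbp*, myelin basic protein, had 2109, 2028, 1688 and 1681 CPM with oil and 1376, 1495, 1454 and 1543 CPM with tamoxifen, a log2 fold change of -0.38 ± 0.18. Oligodendrocytes were 25.6%, 24.1%, 15.02% and 20.95% of the cells in the oil libraries and 15.4%, 17.7%, 19.1% and 14.3% in the tamoxifen libraries. The mean shares were 21.4% ± 4.68 and 16.6% ± 2.16 (SD, n = 4 each), and oil replicate 3 had a lower share than 3 of the tamoxifen libraries. An exact two-sided permutation test of the shares gave p = 0.143, or 0.643 adjusted over 9 cell types.

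Within the oligodendrocytes the myelin genes were divided, 10 higher and 10 lower with a median of 0.00, or -0.05 without tamoxifen replicate 3. *Mog* there had 1776, 1685, 2127 and 1607 CPM with oil and 1697, 1572, 1673 and 1717 CPM with tamoxifen, a log2 fold change of -0.14 ± 0.13. *Mbp* in oligodendrocytes had 7203, 6889, 7895 and 6923 CPM with oil and 6832, 6850, 8146 and 7085 CPM with tamoxifen, a log2 fold change of -0.02 ± 0.14. Both genes overlapped widely between the groups. Other cell types were not alike in these genes. In microglia-like cells 13 of 14 tested members were lower (median -0.59). In polydendrocytes, the precursors of oligodendrocytes, 16 of 17 were lower (median -0.32), where 48.2% of all genes were higher. In ependymal cells 8 members were higher and 3 lower (median 0.20). Fibroblast-like cells had 4 higher and 5 lower (median -0.24), and mural cells 2 higher and 4 lower (median -0.19). Without tamoxifen replicate 3 the ependymal, fibroblast-like and mural medians were 0.06, -0.17 and -0.65. Higher in that case were 7 of 11, 3 of 9 and 1 of 5 members tested. All 12 oligodendrocyte markers were lower in the whole libraries (median -0.46), and whether myelin transcripts in other cell types came from free RNA was not tested.

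**Figure D2:**
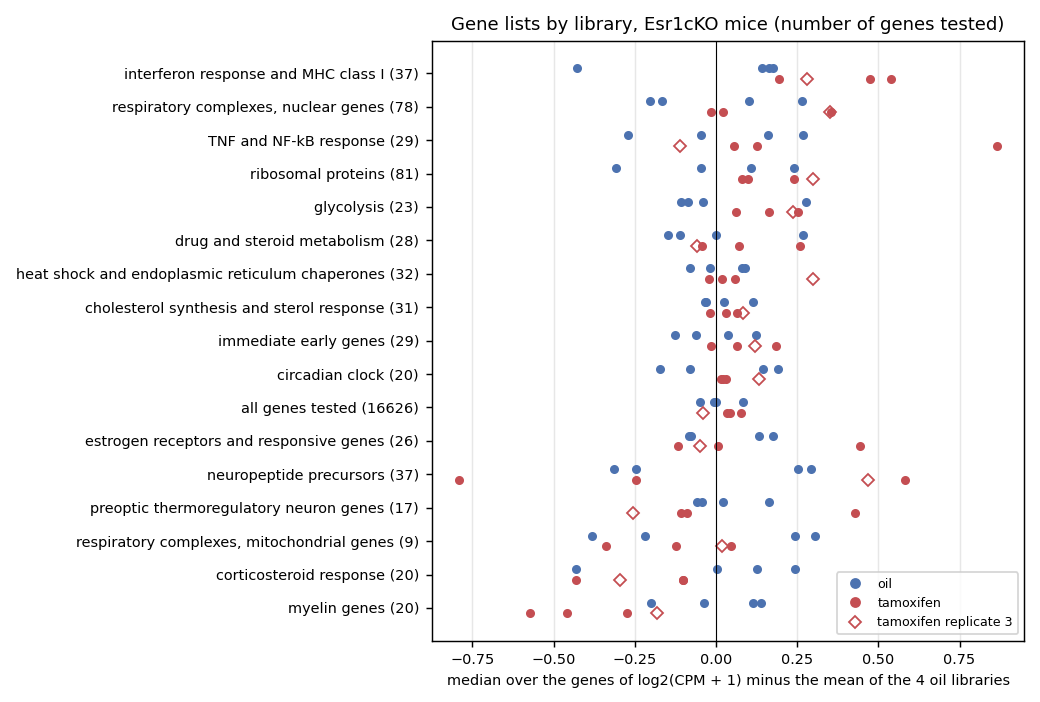
Gene lists in each *Esr1*cKO library. Each point is the median over the tested genes of a list of log2(CPM + 1) in 1 library minus the mean of the 4 oil libraries, with oil in blue, tamoxifen in red and tamoxifen replicate 3 as an open diamond, and the number of genes in parentheses. The lists are ordered by the difference between the groups, and in the interferon list the 4 tamoxifen points (0.19 to 0.54) lie above the 4 oil points (-0.43 to 0.18), while in the corticosteroid list oil replicate 4 lies at the low end with tamoxifen replicate 1.

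**Figure D3:**
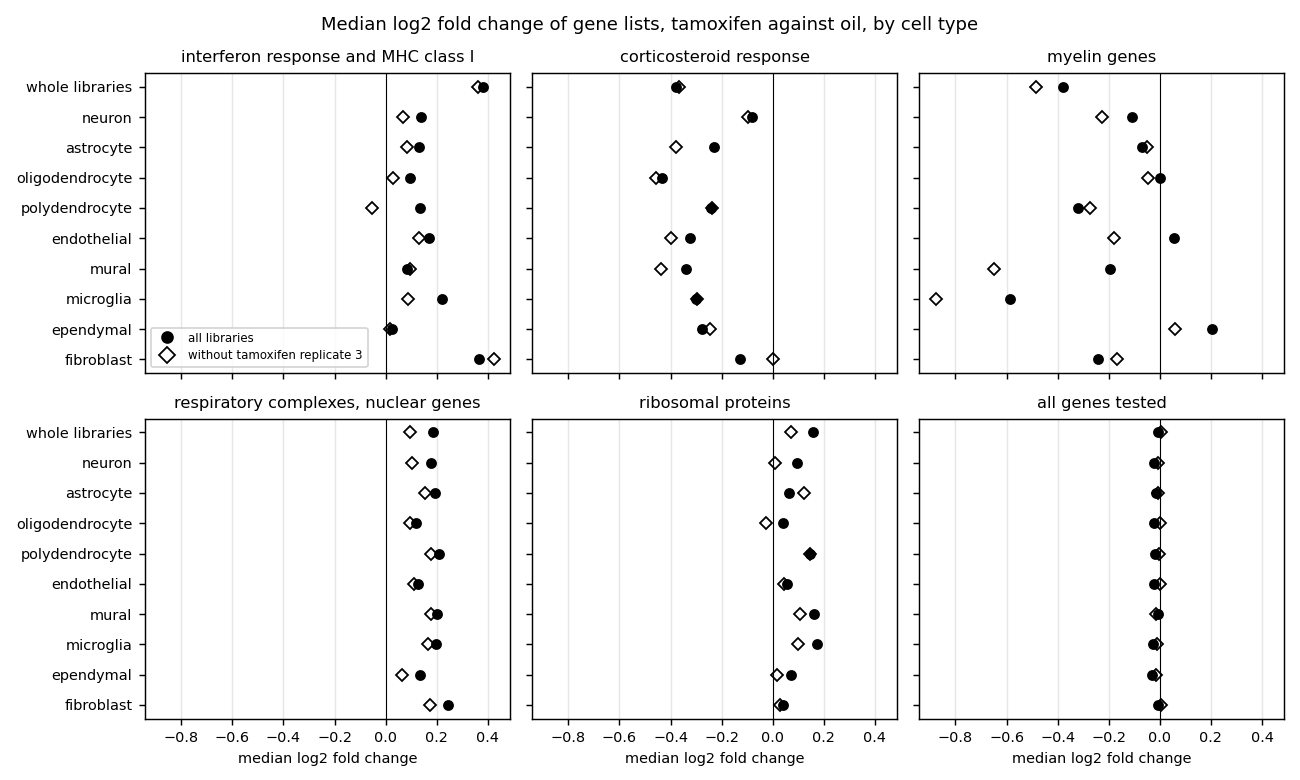
Median log2 fold change of tamoxifen against oil for 5 gene lists and for all genes tested, in the whole libraries and within each of the 9 cell types. Filled circles use all libraries and open diamonds leave out tamoxifen replicate 3. The interferon median was 0.38 in the whole libraries and 0.17 within endothelial cells, the myelin median was -0.38 in the whole libraries and 0.00 within oligodendrocytes, and the corticosteroid median was -0.43 within oligodendrocytes.

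Nuclear genes of the respiratory complexes and of the cytosolic ribosome were slightly higher in nearly all members. All 78 tested respiratory genes had a log2 fold change above 0, with a median of 0.19. Only 1, *Uqcr11*, a small subunit of complex III, had an unadjusted p under 0.05, against 1.56% of all genes in that direction. *Uqcr11* had 241, 217, 275 and 200 CPM with oil and 325, 274, 296 and 280 CPM with tamoxifen, with oil replicate 3 just above the lowest tamoxifen library. Of 81 ribosomal protein genes 71 were higher, with a median of 0.16, and *Rps27* had 705, 578, 741 and 450 CPM with oil and 794, 956, 723 and 801 CPM with tamoxifen. These are short genes, and both lists moved with tamoxifen replicate 3. Without it 63 of the 78 respiratory genes were higher with a median of 0.10, and 57 of the 81 ribosomal genes with a median of 0.07. The 9 tested respiratory genes that the mitochondrial genome encodes were all lower, with a median of -0.10 that was -0.24 without tamoxifen replicate 3.

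The fold changes of all genes also moved with that library, by intron length. Among genes without introns the median log2 fold change was 0.17, in genes with 1 to 10000 bp of introns 0.11, and in genes with over 100000 bp -0.19. Without tamoxifen replicate 3 these medians were 0.05, 0.04 and -0.03. Of the genes with over 100000 bp, 18.6% were higher in the first case and 45.03% in the second. Among the genes named above, *Esr1*, *Fkbp5*, *Zbtb16* and *Mbp* are in that longest class, as are 4 of the 12 lower genes, *Slc44a1*, *Zdhhc14*, *Nfasc* and *Clasp2*, whose log2 fold changes without the library were -0.50, -0.56, -0.50 and -0.41. The medians of the interferon, myelin and corticosteroid lists and of the globin genes below had the same sign without the library.

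**Figure D4:**
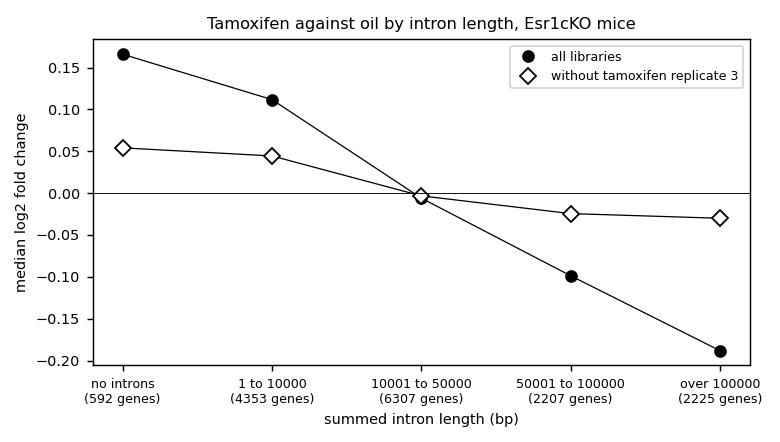
Median log2 fold change of tamoxifen against oil in 5 classes of genes by summed intron length in bp, with the number of genes of each class under the axis. Filled circles use all 8 *Esr1*cKO libraries and open diamonds leave out tamoxifen replicate 3. The medians run from 0.17 to -0.19 with that library and from 0.05 to -0.03 without it.

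With all libraries, the medians of the other pathway lists were smaller in size than those of the interferon, corticosteroid and myelin lists. Of 29 tested TNF and NF-kB response genes 22 were higher (median 0.18). The median rested on tamoxifen replicate 2, without which it was 0.0085 with 16 of 29 higher, and it was 0.32 without tamoxifen replicate 3 and 0.36 also without wild-type oil replicate 3. Of the members 3 were higher at an unadjusted p under 0.05, *Ccl3*, *Il1b* and *Lcn2*, against 1.56% of all genes in that direction. *Ccl3*, a chemokine of myeloid cells, had 49.1, 36.5, 39.7 and 46.2 CPM with oil and 47.4, 139, 80.1 and 48.4 CPM with tamoxifen, so tamoxifen replicate 2 and then replicate 3 stood above the rest and the other 2 were among the oil libraries. *Il1b*, which encodes interleukin 1 beta, had 27.5, 21.5, 2.52 and 14.3 CPM with oil and 31.1, 98.7, 16.7 and 26.1 CPM with tamoxifen, again with replicate 2 highest. Of 32 chaperone genes 20 were higher (median 0.04), among them *Hspa1b*, an inducible HSP70, at 8.62, 11.7, 8.14 and 10.9 CPM with oil and 10.5, 24.2, 20.4 and 16.5 CPM with tamoxifen (log2 fold change 0.85 ± 0.27). Its tamoxifen replicate 1 lay within the oil range. Of 23 glycolysis genes 19 were higher (median 0.14), with *Pfkl* at 22.6 to 36.6 CPM with oil and 37.8 to 42.7 CPM with tamoxifen.

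In the remaining lists the members were divided. The cholesterol list had 17 members higher and 14 lower with a median of 0.03, and the clock list 10 and 10 with a median of 0.01. Immediate early genes, which mark recent neuronal activity, had 17 higher and 12 lower with a median of 0.02. *Nr4a1*, an orphan nuclear receptor of that list, had 100, 124, 109 and 123 CPM with oil and 126, 176, 139 and 149 CPM with tamoxifen, and its groups did not overlap (log2 fold change 0.35 ± 0.20). The clock output gene *Dbp* had 7.96, 19.6, 14.1 and 9.60 CPM with oil and 20.3, 20.9, 16.7 and 18.4 CPM with tamoxifen. Of 28 drug and steroid metabolism genes 18 were higher (median 0.04), and *Ugt8a*, which makes the galactolipid of myelin and lies with the oligodendrocyte genes, was the 1 lower member with an unadjusted p under 0.05. Preoptic thermoregulatory neuron genes had 6 higher and 11 lower with a median of -0.05, or 0.01 without tamoxifen replicate 3.

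The estrogen receptors and estrogen-responsive genes had 12 members higher and 14 lower of 26 tested, with a median of -0.02, and none had an unadjusted p under 0.05. *Esr2*, the gene of the second nuclear estrogen receptor, had 9.62, 13.4, 6.59 and 9.60 CPM with oil and 14.1, 16.4, 0.551 and 13.04 CPM with tamoxifen. *Pgr*, the progesterone receptor and a textbook target of ERα, had 13.6, 12.7, 8.34 and 12.2 CPM with oil and 16.3, 11.3, 2.20 and 9.31 CPM with tamoxifen. In both genes the lowest library by far was tamoxifen replicate 3, and their log2 fold changes without it were 0.52 and 0.02. *Gper1*, the membrane estrogen receptor, had a log2 fold change of 0.47 ± 0.46, *Greb1*, a coactivator induced by estrogen, 0.02 ± 0.38, and *Nkx2-1*, whose promoter drives the Cre, 0.15 ± 0.30. *Tac2*, the neurokinin B precursor of arcuate kisspeptin neurons, had 301, 102, 242 and 73.7 CPM with oil and 516, 45.7, 498 and 396 CPM with tamoxifen. Its range covered more than the difference between the groups (log2 fold change 1.01 ± 0.61), and among neurons alone tamoxifen replicate 2 was again below all oil libraries, at 192 CPM against 226 to 734.

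Of 37 tested neuropeptide precursors 18 were higher and 19 lower, with a median of -0.04. *Nts*, the precursor of neurotensin, was the 1 member whose libraries did not overlap, where 2.08% of all genes tested did not overlap. It had 93.8, 64.2, 80.1 and 62.8 CPM with oil and 44.5, 36.1, 34.5 and 37.8 CPM with tamoxifen, a log2 fold change of -1.0 ± 0.56 (edgeR unadjusted p = 0.0911). Among neurons alone *Nts* had 209, 216, 204 and 188 CPM with oil and 87.3, 114, 75.7 and 132 CPM with tamoxifen, so the groups stayed apart. *Nts* UMIs were found in 5.54% to 7.02% of the neurons of the oil libraries and in 4.91% to 5.05% of those of the tamoxifen libraries. They were found in 0.401% to 0.962% of the other cells, and whether those came from free RNA was not tested. A neuron held a median of 1368 to 1915 UMIs in the oil libraries and 1334 to 2592 in the tamoxifen libraries, and the other cells 504 to 735 in all 8 libraries. The *Nts* UMIs lay unevenly over these neurons. The 10 neurons with the most held 194 of 256, 157 of 172, 214 of 374 and 182 of 231 *Nts* UMIs of neurons in the oil libraries, and 74 of 111, 46 of 48, 125 of 164 and 105 of 119 in the tamoxifen libraries. Neurons with at least 3 *Nts* UMIs were 2.90% to 3.31% of the neurons with oil and 1.73% to 2.05% with tamoxifen. In the wild-type libraries such neurons were 0%, 2.52% and 2.49% with oil and 0.550% to 2.88% with tamoxifen.

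The 3 precursors *Agrp*, *Ghrh* and *Pmch* were uneven between the libraries of a group. *Agrp*, the hunger peptide of the arcuate nucleus, had 10.9, 0.978, 18.8 and 2.08 CPM with oil and 84.3, 0.564, 22.6 and 12.5 CPM with tamoxifen. *Ghrh*, growth hormone-releasing hormone, had 9.28, 5.22, 8.92 and 10.6 CPM with oil and 69.8, 5.64, 10.8 and 5.59 CPM with tamoxifen. Tamoxifen replicate 1 was the highest in both of these arcuate genes. *Pmch*, the precursor of melanin-concentrating hormone in the lateral hypothalamus, had 3.98, 2.28, 152 and 10.4 CPM with oil and 5.43, 3.95, 26.3 and 2.66 CPM with tamoxifen, with replicate 3 the highest in each group. *Gal*, the galanin precursor, had 344, 112, 233 and 180 CPM with oil and 270, 194, 209 and 183 CPM with tamoxifen, a log2 fold change of -0.05 ± 0.43.

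Genes of blood cells varied widely between the libraries. Neutrophil genes, summed over 12, stood at 6.96, 26.4, 9.50 and 16.9 CPM in the oil libraries and at 183, 742, 183 and 10.4 CPM in the tamoxifen libraries. Of the 8 tested, all were higher and 7 had an unadjusted p under 0.05, against 1.56% of all genes in that direction. *S100a8*, a subunit of calprotectin, had 0, 8.15, 0.194 and 0.778 CPM with oil and 69.8, 273, 60.4 and 0 CPM with tamoxifen. Tamoxifen replicate 4 was therefore among the oil libraries, and the other 3 were far above. The UMIs came from few cells: 2, 6 and 3 cells of tamoxifen replicates 1 to 3 had UMIs of at least 3 neutrophil genes, and they held 92.1%, 78.5% and 90.9% of the UMIs of the list in their libraries. These cells fell into the microglia-like cluster in all but 2 cases, which were endothelial. The oil libraries held 0, 1, 1 and 0 such cells.

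Globin transcripts, which erythrocytes carry, were found in many cells, and in some libraries a few cells held a large part of them. All 4 globin genes tested were higher, with a median log2 fold change of 1.30. Each had an unadjusted p under 0.05, against 1.56% of all genes in that direction. Summed globin stood at 2793, 1356, 1653 and 2802 CPM with oil and 4553, 8960, 5670 and 2368 CPM with tamoxifen, so tamoxifen replicate 4 was again within the oil range. Cells with at least 50% of their UMIs on globins numbered 4, 0, 3 and 0 with oil and 4, 9, 7 and 2 with tamoxifen. Without those cells the sums were 1884, 1356, 969.7 and 2802 CPM with oil and 3215, 4997, 4411 and 1789 CPM with tamoxifen. At least 1 globin UMI was found in 8.90%, 14.1%, 10.4% and 11.4% of the cells with oil and in 16.7%, 49.7%, 27.7% and 12.6% with tamoxifen. Within oligodendrocytes *Hbb-bs* had 60.8, 79.0, 31.5 and 282 CPM with oil and 1080, 1810, 633 and 330 CPM with tamoxifen, and the groups did not overlap (log2 fold change 3.02 ± 0.78). Whether these levels reflect blood left in the tissue was not tested. The interferon, TNF and neutrophil lists all had tamoxifen replicate 2 as their highest library, and the part of blood in the first 2 was not tested.

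**Figure D5:**
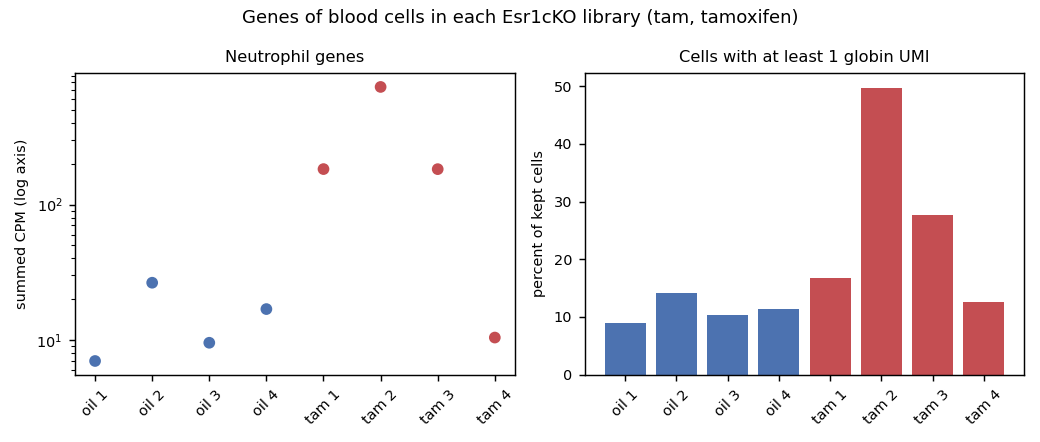
Genes of blood cells in each of the 8 *Esr1*cKO libraries. Left, summed CPM of 12 neutrophil genes on a log axis. Right, percent of kept cells with at least 1 globin UMI, as bars from 0. Tamoxifen replicates 1 to 3 stand at 183, 742 and 183 CPM and at 16.7%, 49.7% and 27.7%, above all oil libraries, and tamoxifen replicate 4 lies within the oil range on both measures.

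Cells were clustered into 9 types, each with at least 11 of the markers of its name higher than in the other clusters. The types held, in these 8 libraries, 5299 astrocytes, 4852 oligodendrocytes, 4479 neurons, 3391 endothelial cells, 2701 microglia-like cells, 2311 polydendrocytes, 1371 ependymal cells, 1006 mural cells and 458 fibroblast-like cells. The microglia-like cluster also took in pars tuberalis-like cells, 69 of 1326 cells with oil and 27 of 1375 with tamoxifen. Finer clustering (resolution 0.5) also set apart tanycytes, 615 cells of these libraries, and perivascular macrophages, 387 cells. Neither is among the 9 types. After the list of its name, the best match in the ependymal cluster was the tanycyte list. In the microglia-like cluster it was the perivascular macrophage list, and in the endothelial cluster the mural list. Among the finer clusters named mural, 1 with 954 cells of these libraries had the endothelial list as its next match. Values given for the endothelial and mural types may therefore include such cells. The finer cluster named ependymal held 800 cells of these libraries, against 1371 in the ependymal type. Values given for the ependymal type therefore cover cells that the finer clustering did not name ependymal, and how many were tanycytes was not tested. Within this type 10 of 11 tanycyte markers were lower and 11 of 12 ependymal markers higher with tamoxifen. Without tamoxifen replicate 3 these were 6 of 11 and 6 of 12. No share passed the exact permutation test, with adjusted p values of 0.643 or more over the 9 types. Before adjustment, 0.0286 is the smallest p that 4 against 4 allows. When oil replicate 3 was left out, the oligodendrocyte share had a p of 0.0286 in this test and an adjusted p of 0.257. A share that alone had the smallest p would not pass after adjustment, so the test cannot decide whether any single share differed. Endothelial cells were 9.39%, 11.3%, 12.5% and 13.8% of the cells with oil and 11.7%, 16.3%, 14.6% and 15.4% with tamoxifen, a mean of 11.7% ± 1.86 against 14.5% ± 2.02 (SD, n = 4 each; exact permutation p = 0.114). The ranges overlapped, with tamoxifen replicate 1 below 2 of the oil libraries. Mural cells were 2.94% ± 1.58 and 4.496% ± 1.42, a difference of 1.55 percentage points that was 0.845 without oil replicate 1 (0.815% mural) and 0.948 without tamoxifen replicate 4. Both shares depended on the clustering. At resolution 0.5 the mean mural share was 6.395% with oil and 8.365% with tamoxifen, and the mean endothelial share 8.294% and 10.64%. This mural share takes in the finer cluster of 954 cells described above. The top genes of that cluster included the endothelial marker *Ly6c1* and the mural markers *Rgs5*, *Higd1b* and *Vtn*. The mural share at this resolution may therefore not be one of mural cells alone. Neurons were 13.9% to 22.0% of the cells with oil and 11.3% to 25.1% with tamoxifen. The mean share of astrocytes was 19.8% ± 5.19 with oil and 20.7% ± 4.12 with tamoxifen.

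UMIs were then summed per library and cell type, and each type was fitted on its own. Again 0 genes passed in any of the 9 types under edgeR, and DESeq2 called 0, in 65568 tests of a gene in a type, of which 2340 had an unadjusted p under 0.05. In neurons there were 385 such genes (3.11%), in astrocytes 322 (3.47%), in oligodendrocytes 325 (3.72%), in endothelial cells 311 (3.38%), in microglia-like cells 296 (4.54%) and in polydendrocytes 388 (4.95%). In ependymal, mural and fibroblast-like cells there were 203 (2.7%), 73 (3.02%) and 37 (2.23%). Leaving the pars tuberalis-like cells out of the microglia-like cluster gave 0 past the threshold and 269 at an unadjusted p under 0.05, of 5991 genes.

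The genes named next were chosen after their values were seen, by the smallest p in each direction within a type. In neurons *Crhbp* had 33.5, 22.6, 26.7 and 17.1 CPM with oil and 6.29, 4.75, 5.54 and 14.4 CPM with tamoxifen, a log2 fold change of -1.70 ± 0.37. Most of its UMIs lay in neurons (above), so these are largely the same counts as in the whole libraries and no separate observation. *Usp40*, which encodes a deubiquitinase, had 44.9, 45.2, 38.7 and 45.5 CPM in neurons with oil and 29.9, 28.5, 25.4 and 31.1 CPM with tamoxifen, with both groups tight and apart. In the other direction *Mpi*, phosphomannose isomerase, had 13.9, 10.04, 20.2 and 14.6 CPM in neurons with oil and 22.8, 28.5, 30.5 and 25.5 CPM with tamoxifen. In astrocytes *Tada3*, of histone acetyltransferase complexes, had a log2 fold change of 1.41 ± 0.34 and *Scrn3* one of -1.16 ± 0.33. In oligodendrocytes *Dopey2* had 47.7, 65.3, 48.7 and 58.1 CPM with oil and 19.7, 15.6, 9.12 and 38.4 CPM with tamoxifen, a log2 fold change of -1.45 ± 0.32 that was -1.08 without tamoxifen replicate 3. The higher genes with the smallest p in oligodendrocytes and mural cells were globins.

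In endothelial cells *Ecscr*, an endothelial surface protein of cell migration, had 49.0, 63.3, 99.1 and 100 CPM with oil and 120, 216, 140 and 131 CPM with tamoxifen, a log2 fold change of 0.90 ± 0.24. *Rab31*, a GTPase of vesicle traffic, had 64.1, 66.2, 54.3 and 49.4 CPM there with oil and 29.9, 16.4, 26.8 and 37.2 CPM with tamoxifen, a log2 fold change of -1.02 ± 0.24. Neither gene overlapped between the groups. In polydendrocytes *Spry4*, an inhibitor of receptor tyrosine kinase signaling, had 30.6, 40.8, 70.1 and 63.7 CPM with oil and 105, 89.8, 120 and 125 CPM with tamoxifen, and *Rgs20*, a regulator of G protein signaling, had 122, 134, 110 and 127 CPM with oil and 94.3, 62.2, 52.5 and 62.7 CPM with tamoxifen. In microglia-like cells *S100a9* and *Ngp*, which are neutrophil genes, had the smallest p among the higher genes and *Rfx7* and *Kdsr* among the lower ones. *Cd52* in these cells had 277, 179, 189 and 152 CPM with oil and 341, 446, 382 and 365 CPM with tamoxifen (log2 fold change 0.94 ± 0.23). In contrast to its whole-library values, replicate 2 was here only slightly above the other tamoxifen libraries. In ependymal cells *Med17*, a Mediator subunit, had 35.4, 48.4, 50.1 and 41.9 CPM with oil and 16.9, 17.4, 17.4 and 18.2 CPM with tamoxifen, a log2 fold change of -1.31 ± 0.36.

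The difference between tamoxifen and oil in *Esr1*cKO mice was finally tested against that in wild-type mice. No gene passed this test of the difference (0 of 16626, 0%, by edgeR), 708 (4.26%) had an unadjusted p under 0.05, and DESeq2 called 1, *Aurkaip1*. *Aurkaip1* was higher with tamoxifen in *Esr1*cKO mice (0.49 ± 0.13), whereas in wild-type mice its level was 68.7 to 82.2 CPM on oil and 50.4 to 60.9 CPM on tamoxifen, so that neither genotype overlapped and the 2 differences had opposite signs (difference of log2 fold changes 0.93 ± 0.19, edgeR adjusted p = 0.958). *Snn* had the same arrangement, with 28.5 to 33.3 CPM on oil and 23.3 to 27.9 CPM on tamoxifen in wild-type mice (difference 0.78 ± 0.18). Among the genes lower in *Esr1*cKO mice, *Nsun7* had 11.9 to 19.2 CPM on oil and 12.97 to 25.97 CPM on tamoxifen in wild-type mice (difference -1.36 ± 0.34). *Cdk7* had 30.1 to 43.5 and 41.1 to 53.5 CPM and *Zdhhc14* 24.8 to 51.9 and 47.1 to 63.4 CPM in wild-type mice on oil and tamoxifen, with differences of -0.86 ± 0.21 and -1.12 ± 0.30. The 2 libraries low on long genes lie on opposite sides of this comparison, 1 an oil library of the wild type and 1 a tamoxifen library of the *Esr1*cKO mice. Without both the difference was -0.73 ± 0.22 for *Zdhhc14*, whose introns put it in the longest class, -0.67 ± 0.22 for *Cdk7*, -1.09 ± 0.35 for *Nsun7* and 0.88 ± 0.22 for *Aurkaip1*. *Cyp2j12*, of the cytochrome P450 family, had 21.9, 27.4, 13.4 and 21.0 CPM with oil and 14.1, 16.9, 12.5 and 14.4 CPM with tamoxifen in *Esr1*cKO mice, and 5.82 to 12.7 and 15.7 to 20.5 CPM in wild-type mice. The other genes with the smallest p for a difference between genotypes were *Camp*, *S100a9* and *1100001G20Rik*, all carried by the libraries with neutrophils, and *Gm26870*. In the 9 cell types 0 genes passed the same test, with 3176 of 65568 at an unadjusted p under 0.05.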

How the data were processed

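The authors made each Drop-seq library from the dissociated hypothalamus-POA of 1 mouse and deposited a table of raw counts, UMIs per gene and barcode, after alignment to mm10 with STAR 2.6 (per the labels' processing notes); the tool that counted the UMIs and its annotation are not given in the sources used here. The deposited counts were read as they are. A barcode was kept if it had over 200 and below 4000 genes, with mitochondrial transcripts at less than 15% of its UMIs, and their UMIs were summed per library, and per library and cell type where a library had at least 10 cells. Counts were tested with the quasi-likelihood test of edgeR 4.0.16 (R 4.3.3; TMM, filterByExpr, 4 groups, 16 libraries, two-sided, Benjamini-Hochberg over all genes of a fit), and DESeq2 1.42.0 was an alternative. The mouse was the replicate, whereas the study's own test took cells. The pipeline was tested on simulated counts.

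Cells were clustered with Seurat 5.3.0 (2000 variable genes, anchors over 30 dimensions, 20 components, resolution 0.05) and named from marker genes. Shares of cells were compared by an exact permutation test of the 4 against 4 libraries. Doublets called by Scrublet (scanpy 1.11.5), 0.156% to 2.37% of the cells of a library, were kept, and an alternative left them out. Intron lengths and coordinates came from the GRCm38 annotation, and promoters from RefSeq.

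The mice, gene lists and alternatives were chosen with earlier results of these data known. The named genes are, in each direction, the 12 with the smallest p whose libraries did not overlap, the 5 with the smallest p for the difference between genotypes, and the 2 highest and 2 lowest members of each list by p; genes within a cell type and a few list members were chosen after their values were seen. Alternatives were another normalization, test, filter on low counts and filter on cells, the library fours as a block, the *Esr1*cKO libraries alone, and each library left out.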

Additional observations from a re-analysis of the deposited data

Results flagged for a closer look

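In 23 of 268 groups of 4 libraries, 1 library lay outside the 95% limit of Dixon's test for its distance from the other 3, and chance alone gives about 5% of such groups. Among the tamoxifen libraries, replicate 2 was the high one for 4 immune genes and *Ier3*. It had 142.7 CPM of *Lcn2*, an iron-binding protein of neutrophils (the others 0.266 to 6.06), 23.12 CPM of *Ltf*, lactoferrin (2.39 to 4.70), 37.78 CPM of *Ifitm1* (19.2 to 20.8), 1034 CPM of *H2-D1* (603 to 655) and 191.7 CPM of the immediate early gene *Ier3* (92.2 to 97.3). This is also the library with the most globin and neutrophil UMIs. In tamoxifen replicate 3 the share of UMIs on genes with over 100000 bp of introns was 10.61%, and *Zdhhc14* stood at 27.0 CPM (46.2 to 48.5). *Pmch*, of the lateral hypothalamus, was high in replicate 3 of both groups, at 151.8 CPM with oil (2.28 to 10.4) and 26.27 CPM with tamoxifen (2.66 to 5.43). *Ghrh*, of the arcuate nucleus, was high in tamoxifen replicate 1 at 69.8 CPM (5.59 to 10.8), and *Ephx1*, an epoxide hydrolase, was low there at 36.89 CPM (52.4 to 54.0). In tamoxifen replicate 4 *Ankrd42* stood at 23.68 CPM (18.9 to 19.5), and polydendrocytes were 5.716% of the cells (8.96% to 9.29%).

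Among the oil libraries, replicate 3 was the high one for *Tnfaip1* at 40.52 CPM, *Cryab*, a small heat shock protein of oligodendrocytes and astrocytes, at 476.3 CPM, *Ldha*, lactate dehydrogenase, at 150.8 CPM and *mt-Nd3*, a mitochondrial subunit of complex I, at 121.7 CPM. Oil replicate 1 was the high one for *Rpl24* at 89.52 CPM and the low one for *Psmb8* at 17.24 CPM (30.6 to 33.3). Oil replicate 2 had 8.152 CPM of *S100a8* (0 to 0.778), and fibroblast-like cells were 3.993% of its cells (1.14% to 1.59%). Oil replicate 4 had 280.7 CPM of *Nfasc* (188 to 189) and 4.411 CPM of *Gm26870* (7.63 to 8.14). The causes were not tested.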

How the results depend on the processing

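With 4 mice a group and a mouse as the replicate, the libraries could show only large differences, and 3 UMIs, the limit that a count of 0 allows, is 0.551 to 1.69 CPM. The study's methods say that the groups were processed together over 4 days, 4 mice a day, but the labels tie no library to a day. Successive fours of library numbers, each with 1 *Esr1*cKO oil and 1 *Esr1*cKO tamoxifen library, were therefore tried as a replicate block in place of the day, and that fit called 0 genes in the whole libraries and 0 over the 9 cell types, with Esr2 at -0.16 (log2). The median of genes with over 100000 bp of introns went from -0.19 to -0.03 without tamoxifen replicate 3. Values under an alternative are log2 fold changes of tamoxifen against oil unless a count or a share is named, and the cause was not tested for any of them.

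Of the values that answer a comparison, 172 kept their side of the threshold and their direction (a count within 1.5 times), 15 moved and 9 turned direction. Of those for named genes and lists, 2505 kept them and 53 turned direction, 4 moved and 4 passed the threshold. In the whole libraries 4 genes were called with the fours as a block and without both tamoxifen replicate 3 and wild-type oil replicate 3 (*Camp*, *Retnlg*, *S100a8* and *S100a9*, all neutrophil genes). Leaving out each library in turn called 0. Over the 9 cell types, 18 gene calls came from that same fit, 8 without both libraries (4 globin genes and *Gm10800* in oligodendrocytes, 3 globins in mural cells), 5 from the *Esr1*cKO libraries alone without tamoxifen replicate 3 (the same 5 oligodendrocyte genes), 2 with under 5% of mitochondrial UMIs (*Ptn* and *Vtn* in mural cells) and 86 with no filter on low counts. Leaving out 1 library gave 0 to 2 calls, with *Hba-a1* and *Hbb-bs* in mural cells without tamoxifen replicate 3 and 1, *Ngp* in microglia-like cells, without tamoxifen replicate 4. For the difference between the genotypes DESeq2 called 1 gene (*Aurkaip1*) and the fours without both libraries 1 (*Camp*) in the whole libraries. Over the cell types the fours without both libraries called 11, the lack of both libraries alone 9, under 5% of mitochondrial UMIs 5, no filter 134, and leaving out 1 library 0 to 4, the highest without tamoxifen replicate 4.

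Among shares of cells, in percentage points of tamoxifen minus oil, astrocytes stood at -2.34 and neurons at 1.21 when cells needed more than 500 genes. Leaving out 1 library gave -1.09 to 3.12 for astrocytes, -3.85 to 0.74 for neurons, -0.073 to 1.90 for microglia-like cells and -0.66 to 0.29 for fibroblast-like cells. With pars tuberalis-like cells as a type of their own the microglia-like share was 9.76% with oil and 11.3% with tamoxifen.

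Genes that turned direction had small or uneven differences. With all deposited barcodes *Ghrh* was at -0.31, *Ifitm1* at 0.079, *Mt1* at -0.11, *Esr2* at -0.068 and *Foxb1* at 0.084. With cells of more than 500 genes *Ifitm1* was at 0.017, *Mt1* at -0.036, *Esr2* at -0.0034, *Gal* at 0.0016 and *Foxb1* at 0.093, and with under 5% of mitochondrial UMIs *Mt1* was at -0.26, *Slc16a7* at 0.094 and *Foxb1* at 0.27. In the *Esr1*cKO libraries alone without tamoxifen replicate 3 *Slc2a3* was at 0.0062, *Slc16a7* at 0.14, *Pgr* at 0.033 and *Foxb1* at 0.24. Without both libraries *Slc16a7* was at 0.12, *Pgr* at 0.017 and *Foxb1* at 0.22, and with the fours as well *Slc16a7* was at 0.12, *Nkx2-1* at -0.015 and *Foxb1* at 0.017. DESeq2 size factors put *Foxb1* at 0.00045. Leaving out 1 library gave -0.15 to 1.70 for *Ghrh*, -3.45 to 0.85 for *Pmch*, -0.15 to 0.0072 for *Dnajb4*, -0.36 to 0.00029 for *Slc2a3*, -0.22 to 0.14 for *Slc16a7*, -0.24 to 0.068 for *mt-Nd6*, -0.28 to 0.10 for *Ifitm1*, -0.14 to 0.16 for *Mt1*, -0.030 to 0.52 for *Esr1*, -0.18 to 0.52 for *Esr2*, -0.73 to 0.023 for *Pgr*, -0.26 to 0.30 for *Gal* and -0.43 to 0.22 for *Foxb1*. List medians moved by at most 0.13 without tamoxifen replicate 3, 0.15 with the fours as a block and 0.18 without both libraries (the TNF and NF-kB list, then at 0.36), and those of the chaperone and cholesterol lists then stood at -0.09 and -0.05 without tamoxifen replicate 3 and at -0.10 and -0.06 without both libraries.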
